A study of Saccharomyces cerevisiae with 12 samples.

Results

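The small subunit processome is the large nucleolar particle in which the 18S rRNA of the small ribosomal subunit is cut out of its precursor and folded. Its genes were followed here across a pulse of furan aldehydes in S. cerevisiae. A list of 49 genes was taken, and 49 of 49 had 1 probe set each among the 5489 gene-annotated probe sets (5444 genes) of the array. The platform annotation named 48 of them by the listed symbol, and DBP4 stands there under its other name, HCA4.

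RNA was hybridised to 12 arrays (Affymetrix Yeast Genome 2.0, 3 for each condition) from anaerobic batch cultivations of one strain, VTT C-10883. All cells carry the Scheffersomyces (Pichia) stipitis genes XYL1 and XYL2 at the URA3 locus, overexpress the endogenous XKS1 and have URA3 restored, so that xylose can be consumed once glucose is gone. The 4 conditions were the xylose pulse (xylose consumption phase, HMF at 3.9 g/L and furfural at 1.2 g/L, sampled 1 hour later), the xylose control (xylose consumption phase, no pulse), the glucose pulse (glucose consumption phase, the same pulse and time) and the glucose control (glucose consumption phase, no pulse). Arrays of a condition come from separate bioreactors, and the methods describe the unpulsed samples both as drawn just before the pulse and as separate cultivations without one, so the pulse and the further hour of cultivation cannot be told apart for certain. Phase is also tied to time in culture, and the 2 phases were pulsed in separate experiments. The values are log2 expression after RMA, which sets all arrays to one distribution, so a change in total mRNA per cell is not seen. In a whole culture, fewer cells holding a transcript and fewer transcripts per cell cannot be told apart.

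As background, the particle forms around the nascent precursor rRNA in modules. The UTP-A (t-UTP) complex binds the 5′ end of the transcript first, followed by the UTP-B complex and the U3 snoRNP, whose RNA base-pairs with the precursor to guide its cleavage. Mpp10 with its partners Imp3 and Imp4, the GTPase Bms1, the RNA helicases and many single factors then join, and the helicase Dhr1 (encoded by ECM16) later strips U3 away. In budding yeast these genes belong to the ribosome biogenesis regulon, which is known to be expressed in step with growth and to be lowered under stress.

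The level of the members differed with both phase and pulse. The median over the 49 genes was 8.86, 8.66 and 8.61 on the 3 xylose pulse arrays, 7.53, 7.56 and 7.61 on the xylose control arrays, 9.58, 9.25 and 9.39 on the glucose pulse arrays, and 10.26, 10.15 and 10.31 on the glucose control arrays. The conditions did not overlap in this median, the glucose control being highest and the xylose control lowest. The median over all tested probe sets lay between 9.70 and 9.75 on every array. Replicate spread was small, with a median SD per member of 0.18 in the xylose pulse, 0.14 in the xylose control, 0.15 in the glucose pulse and 0.11 in the glucose control, and no member exceeded an SD of 0.44, that of UTP13 in the xylose pulse. Detection calls were not used here. The mean of 11 members in the xylose control lay among the lowest 10% of probe sets of that condition (below 5.93), against 1 in the xylose pulse, 0 in the glucose pulse and 0 in the glucose control, so fold changes against the xylose control have a dim side for these genes and their sizes are not exact.

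**Figure D1:**
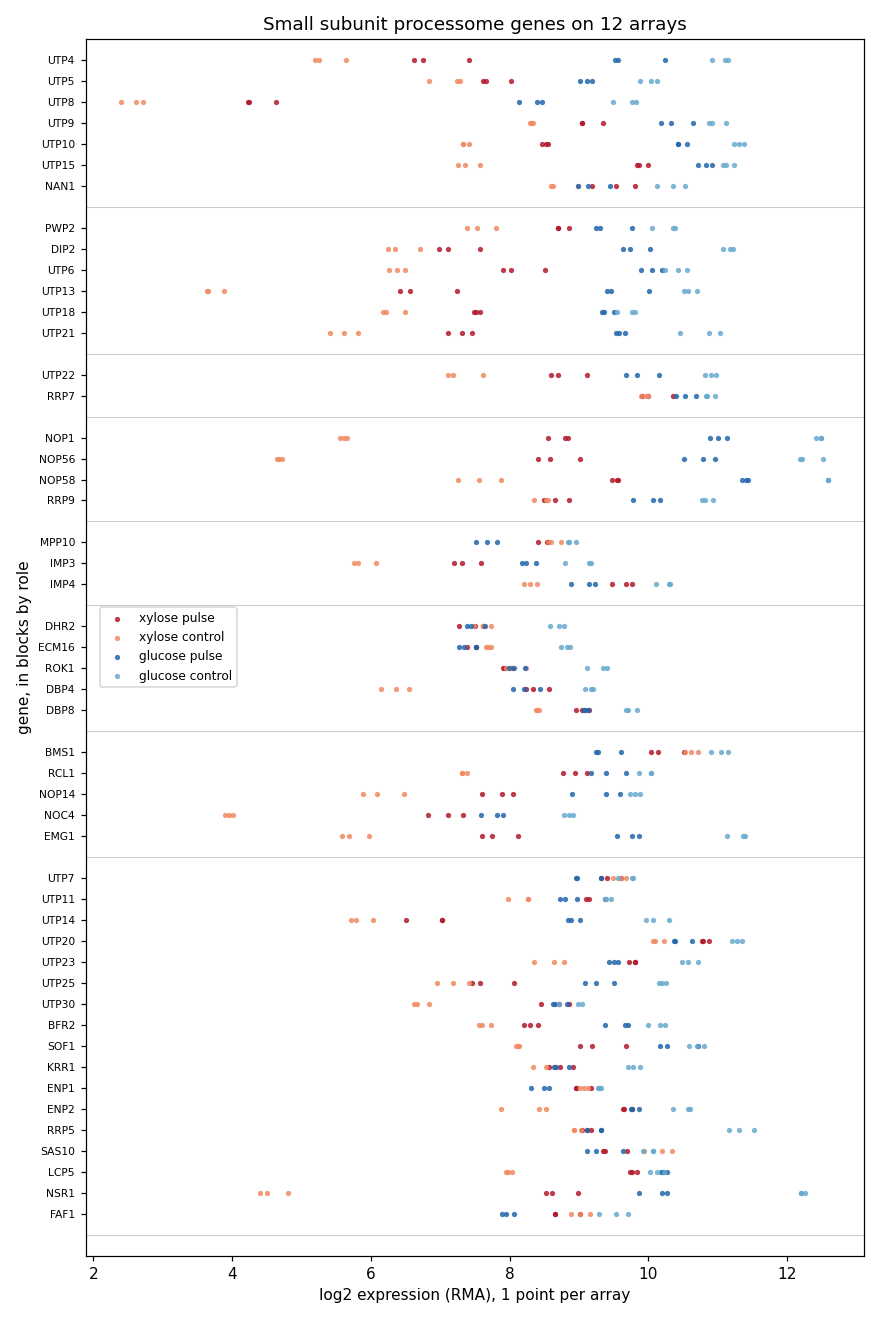
Log2 expression (x axis) of the 49 processome genes (y axis, in blocks by role, from the UTP-A complex at the top to the single factors at the bottom), with 1 point per array coloured by condition. For most genes the xylose control lies farthest left and the glucose control farthest right. In MPP10, BMS1, UTP7, ENP1, SAS10, FAF1 and RRP7 the means of the xylose control and the glucose control lie within 1 log2 unit of each other.

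The first question was how the processome genes responded to the pulse in the glucose consumption phase. Processome genes fell there, moderately and together. Of 49 members, 23 were called lower, 0 higher and 26 did not pass, where a call needs a Benjamini-Hochberg adjusted p from limma under 0.01 together with a change of more than 1 log2 unit. In the whole table, 9.55% of probe sets were called lower and 11.6% higher. The median log2 fold change of the members was -0.92, against 0.03 over all probe sets. In size the changes ran from -2.12 for NSR1 to 0.09 for LCP5, and 48 of 49 were below 0. An adjusted p under 0.01 with any size of decrease was reached by 42 members, where 27.1% of all probe sets did so, and no member rose even at an unadjusted p under 0.05. At that unadjusted level limma gave 2039 of all 5489 probe sets with an increase and 1845 with a decrease. For 46 members all 3 glucose pulse arrays lay below all 3 glucose control arrays, which held for 34.1% of all probe sets. The count of 23 depends on the fold threshold, since 22 of the members with an adjusted p under 0.01 had a log2 fold change within 0.25 of it in size.

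NSR1, the nucleolin-like RNA-binding protein of the nucleolus, had the largest decrease. Its log2 expression was 10.27, 9.86 and 10.19 on the glucose pulse arrays, against 12.20, 12.20 and 12.26 on the glucose control arrays, and limma estimated the log2 fold change at -2.12 (standard error 0.14, adjusted p = 3.36e-08). RRP5, a large RNA-binding factor needed for the maturation of both subunits, stood at 9.32, 9.12 and 9.31 after the glucose pulse and at 11.52, 11.16 and 11.31 in the glucose control (-2.08, standard error 0.10, adjusted p = 1.08e-09 from limma). BMS1, the GTPase of the particle, had 9.61, 9.27 and 9.25 after the pulse, against 11.15, 10.90 and 11.05 in the control (-1.66, standard error 0.13, adjusted p = 2e-07 from limma). In all 3 genes the pulsed arrays lay more than 1 log2 unit below the lowest control array.

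By role, the listed U3 snoRNP proteins fell in 3 of 4 cases, namely the rRNA methyltransferase fibrillarin (NOP1, -1.45) and the paired scaffold proteins NOP56 (-1.55) and NOP58 (-1.19), while RRP9, the U3-specific protein, had -0.84 and did not pass. A further U3 snoRNP gene, SNU13, is not a member and is counted below with the further small-subunit factors. It was called lower (-1.10). NOP1 was at 10.89, 11.00 and 11.13 in the glucose pulse and at 12.49, 12.41 and 12.49 in the glucose control. Helicase genes fell in 3 of 5 cases, with ECM16 at -1.43 and DHR2 and ROK1 both at -1.20, and DBP4 (-0.92) and DBP8 (-0.65) short of the fold threshold. ECM16 read 7.27, 7.34 and 7.52 after the pulse, against 8.74, 8.87 and 8.82 in the control, with no overlap (standard error 0.08, adjusted p = 8.66e-09 from limma).

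In the UTP-A complex, UTP8 (-1.36), UTP4 (-1.28) and NAN1 (-1.14) fell and the other 4 members did not pass, although all 7 had an adjusted p under 0.01. UTP10, its largest subunit, is an example, with 10.42, 10.43 and 10.55 after the glucose pulse, against 11.24, 11.31 and 11.38 in the glucose control (-0.84, adjusted p = 4.68e-07 from limma). In the UTP-B complex, DIP2 (-1.36) and UTP21 (-1.20) fell, and PWP2, UTP6, UTP13 and UTP18 had -0.83, -0.36, -0.97 and -0.30. PWP2, a scaffold with WD repeats, read 9.76, 9.25 and 9.30 in the glucose pulse and 10.36, 10.05 and 10.38 in the glucose control. UTP22 of the UTP-C complex passed narrowly at -1.02, with 10.15, 9.68 and 9.83 after the pulse, against 10.90, 10.98 and 10.82 in the control. It did not pass without glucose control replicate 2 (-0.98), glucose pulse replicate 2 (-0.91) or glucose pulse replicate 3 (-0.99).

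MPP10 and IMP4 fell (-1.21 and -1.15), and their partner IMP3 had -0.77. MPP10 was at 7.68, 7.82 and 7.51 in the glucose pulse, against 8.95, 8.84 and 8.86 in the glucose control. Next to BMS1, the 18S rRNA methyltransferase gene EMG1 fell by 1.57 and NOC4, which pairs with Nop14, by 1.08 on the log2 scale, while RCL1, the partner of Bms1, had -0.57 and NOP14 -0.51. Of the 17 remaining factors 6 fell, among them FAF1 (-1.54), UTP14 (-1.20), an activator of Dhr1, and KRR1 (-1.07), a KH-domain protein. LCP5, which is named here after its values were seen, was the only member with an estimate above 0, at 10.18, 10.27 and 10.21 after the pulse and 10.13, 10.02 and 10.23 in the control, ranges that overlap (0.09, standard error 0.08, adjusted p = 0.295 from limma).

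The next question was the response to the same pulse in the xylose consumption phase. Most processome genes rose there. Of 49 members, 28 were called higher, 0 lower and 21 did not pass, against 11.8% higher and 8.38% lower in the whole table. The median log2 fold change was 1.17, against -0.08 over all probe sets, with a range from -0.69 for SAS10 to 4.13 for NSR1. Any increase at an adjusted p under 0.01 was seen in 35 members (27.9% of all probe sets), and a decrease at that level in 1 (32.9% of all probe sets), SAS10, which stayed short of the fold threshold. At an unadjusted p under 0.05 limma gave 36 members with an increase and 3 with a decrease. The same level was reached by 1807 of all 5489 probe sets with an increase and by 2176 with a decrease. The 3 xylose pulse arrays lay above the 3 xylose control arrays for 37 members, where 33.0% of all probe sets did so, and below them for 4 (40.6% of all probe sets).

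NSR1 again had the largest change. It stood at 8.98, 8.52 and 8.61 on the xylose pulse arrays, against 4.40, 4.81 and 4.51 on the xylose control arrays (4.13, standard error 0.14, adjusted p = 1.22e-10 from limma). NOP56 followed, with 9.02, 8.58 and 8.41 after the xylose pulse and 4.72, 4.68 and 4.65 in the xylose control (3.99, standard error 0.15, adjusted p = 3.13e-10 from limma). NOC4 had 6.82, 7.11 and 7.33 after the pulse, against 3.96, 3.90 and 4.02 in the control (3.12, standard error 0.12). The control level of all 3 was among the lowest 10% of that condition, so these increases are not exact in size, but no arrays of the 2 groups overlapped.

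NOP1 rose by as much as NOC4 (3.12, standard error 0.09), reading 8.55, 8.84 and 8.80 in the xylose pulse and 5.66, 5.61 and 5.56 in the xylose control, and NOP58 had 1.96. RRP9, with 0.19, was the listed U3 protein that did not pass, and SNU13, which is not a member, was called higher (1.19). In the UTP-B complex 5 of 6 genes rose, led by UTP13 with 7.24, 6.42 and 6.57 after the pulse, against 3.64, 3.65 and 3.88 in the control (3.02, standard error 0.20), and DIP2 did not pass at 0.78. PWP2 rose narrowly, to 8.86, 8.69 and 8.69 in the xylose pulse, against 7.53, 7.39 and 7.81 in the xylose control (1.17, standard error 0.15).

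In the UTP-A complex UTP15 (2.51), UTP8 (1.79), UTP4 (1.57) and UTP10 (1.15) rose, and UTP9 (0.83), NAN1 (0.77) and UTP5 (0.65) did not pass. UTP8 remained dim throughout, with 4.23, 4.24 and 4.63 after the xylose pulse, against 2.61, 2.72 and 2.40 in the xylose control. UTP4 read 7.42, 6.75 and 6.62 in the pulse and 5.20, 5.25 and 5.64 in the control, and UTP10 read 8.46, 8.52 and 8.55 in the pulse and 7.42, 7.33 and 7.33 in the control. UTP22 rose by 1.5, with 9.11, 8.70 and 8.59 after the pulse, against 7.11, 7.19 and 7.61 in the control. Of the other factors, EMG1 had 2.07, UTP30 1.96, LCP5 1.79, NOP14 1.69, RCL1 1.61, IMP3 1.48, ENP2 1.41 and IMP4 1.34.

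Of the helicase genes 1 of 5 rose in this phase, DBP4 with 2.03, and DBP8 had 0.64, ROK1 -0.11, DHR2 -0.14 and ECM16 -0.22, none of which passed. ECM16 was at 7.52, 7.52 and 7.38 after the xylose pulse, against 7.66, 7.69 and 7.73 in the xylose control, the pulsed arrays being the lower ones (adjusted p = 0.0333 from limma). BMS1 had 10.51, 10.14 and 10.03 in the pulse and 10.71, 10.53 and 10.61 in the control (-0.39, adjusted p = 0.0194 from limma), and MPP10 had 8.54, 8.55 and 8.41 in the pulse and 8.59, 8.55 and 8.74 in the control (-0.13, adjusted p = 0.237 from limma). RRP5 differed little, at 9.05, 9.17 and 9.12 after the pulse and 9.03, 8.93 and 8.93 in the control (0.15, adjusted p = 0.191 from limma). The pulsed arrays of ECM16, BMS1 and MPP10 lay at or below the lowest control array, and those of RRP5 lay above the control arrays.

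**Figure D2:**
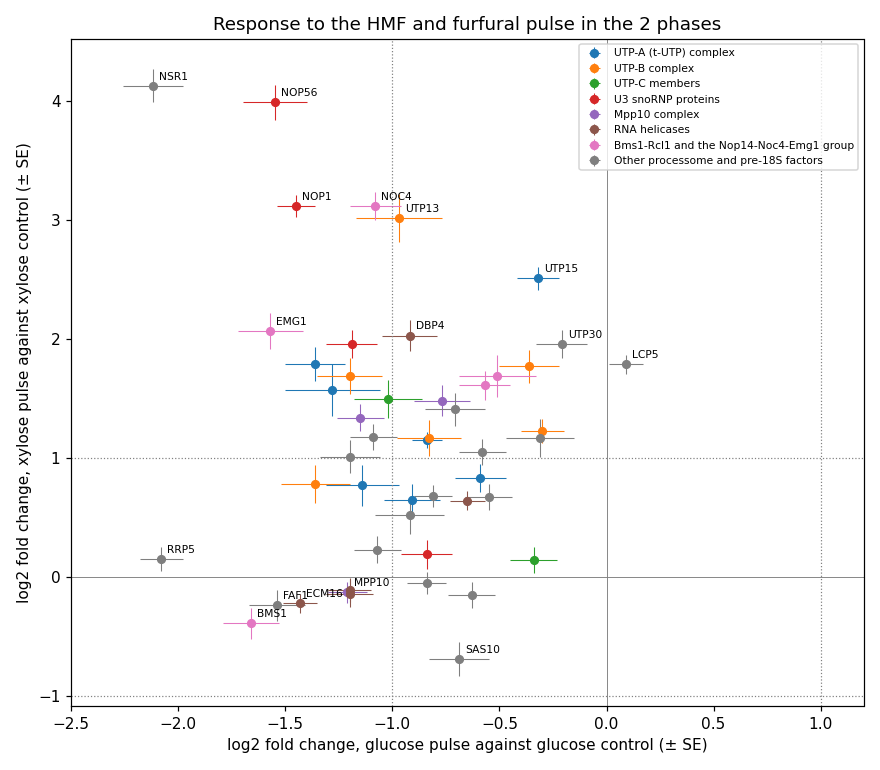
Log2 fold change of each of the 49 genes after the pulse in the glucose phase (x axis) and in the xylose phase (y axis), with standard errors from limma as bars, coloured by role; dotted lines mark the fold threshold of 1. Points lie left of 0 in all cases but LCP5, and between -0.69 and 4.13 on the y axis, with RRP5, BMS1, FAF1, ECM16 and MPP10 left of the fold threshold and near 0 on the y axis.

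The 2 pulse responses use separate arrays, and they can be set side by side gene by gene. A decrease after the glucose pulse together with an increase after the xylose pulse was called for 13 members, namely UTP4, UTP8, UTP21, UTP22, NOP1, NOP56, NOP58, IMP4, NOC4, EMG1, UTP14, UTP23 and NSR1. Another 10 were lower after the glucose pulse and not called after the xylose pulse (NAN1, DIP2, MPP10, DHR2, ECM16, ROK1, BMS1, KRR1, RRP5 and FAF1), 15 were higher after the xylose pulse and not called after the glucose pulse, and 11 were called in neither. The share of all probe sets with each joint pattern was not computed, so these counts only describe the members. Across the 49 genes the 2 log2 fold changes were unrelated in size (Pearson r = -0.08, Spearman rho = 0.04, over genes that share arrays and are not independent replicates), as over all 5489 probe sets (-0.08 and -0.12).

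The difference between the responses was tested as a contrast of its own, the log2 fold change in the xylose phase minus that in the glucose phase. It was called above 0 for 45 of 49 members and below 0 for none, where 19.0% of all probe sets were called above and 19.9% below, and at an unadjusted p under 0.05 limma gave 48 above and 0 below. Among all 5489 probe sets that unadjusted level gave 1834 above and 2286 below. The median difference was 2.00, against -0.13 over all probe sets. NSR1 (6.24, standard error 0.20), NOP56 (5.54, standard error 0.22) and NOP1 (4.57, standard error 0.13) had the largest differences. The xylose controls of these genes lay among the lowest 10% of their condition, so the differences are exact neither in size nor in order. Genes such as BMS1 (1.27) and ECM16 (1.22), which fell in the glucose phase and had no called change in the xylose phase, also differed between the phases. The 4 members without a called difference were UTP7, RRP7, ENP1 and SAS10.

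The phases themselves were compared without a pulse. In the xylose control 42 of 49 members were lower than in the glucose control, 0 were higher and 7 did not pass, where 27.2% of all probe sets were called lower and 27.8% higher. The median log2 fold change was -2.64, against 0.09 over all probe sets, and for 47 members the arrays did not overlap (42.6% of all probe sets in that direction). An adjusted p under 0.01 with any size of decrease was reached by 44 members (39.2% of all probe sets), and at an unadjusted p under 0.05 limma gave 47 members lower and 0 higher. Among all 5489 probe sets that unadjusted level gave 2292 lower and 2485 higher. NSR1 had the lowest log2 fold change of the members, -7.64 (standard error 0.14, adjusted p = 4.09e-14 from limma), with 4.40, 4.81 and 4.51 in the xylose control, against 12.20, 12.20 and 12.26 in the glucose control. NOP56 was at -7.62, with 4.72, 4.68 and 4.65 in the xylose control, against 12.51, 12.19 and 12.22 in the glucose control. UTP8 was at -7.11, with 2.61, 2.72 and 2.40 in the xylose control, against 9.49, 9.76 and 9.82 in the glucose control. UTP13 had -6.87 and NOP1 -6.85. The xylose controls of these 5 genes lay among the lowest 10% of their condition, and their log2 fold changes are exact neither in size nor in their order.

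All 7 UTP-A genes, all 6 UTP-B genes, all 4 listed U3 snoRNP genes and all 5 listed helicase genes were lower in the xylose control than in the glucose control, with medians of -3.75, -4.37, -5.94 and -1.22. After a second quantile normalization 41 members were lower between the controls, against 42, and ECM16 (-0.93) no longer passed. Of the helicase genes only ECM16 was followed singly in that fit. UTP4 had 5.20, 5.25 and 5.64 in the xylose control, against 11.14, 10.91 and 11.11 in the glucose control (-5.69). NOC4 had -4.89, from 3.96, 3.90 and 4.02 in the xylose control and 8.79, 8.92 and 8.86 in the glucose control. UTP22 had -3.60, UTP10 -3.95 and PWP2 -2.69. At the other end, RRP5 had -2.37 and the helicase genes ECM16, DHR2 and ROK1 -1.12, -1.08 and -1.22, close to the threshold.

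Of the 7 members not called between the controls, SAS10, UTP7, ENP1, MPP10, BMS1 and FAF1 had log2 fold changes of 0.14, -0.11, -0.22, -0.25, -0.42 and -0.49, and RRP7 had -0.93. MPP10 was at 8.59, 8.55 and 8.74 in the xylose control, against 8.95, 8.84 and 8.86 in the glucose control, where IMP3 had -3.16 and IMP4 -1.93. BMS1 was at 10.71, 10.53 and 10.61 in the xylose control, against 11.15, 10.90 and 11.05 in the glucose control, where RCL1 had -2.64. All 28 members that rose after the xylose pulse were among the 42 that were lower in the xylose control than in the glucose control. Both counts use the xylose control arrays, so this overlap is not independent of them.

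**Figure D3:**
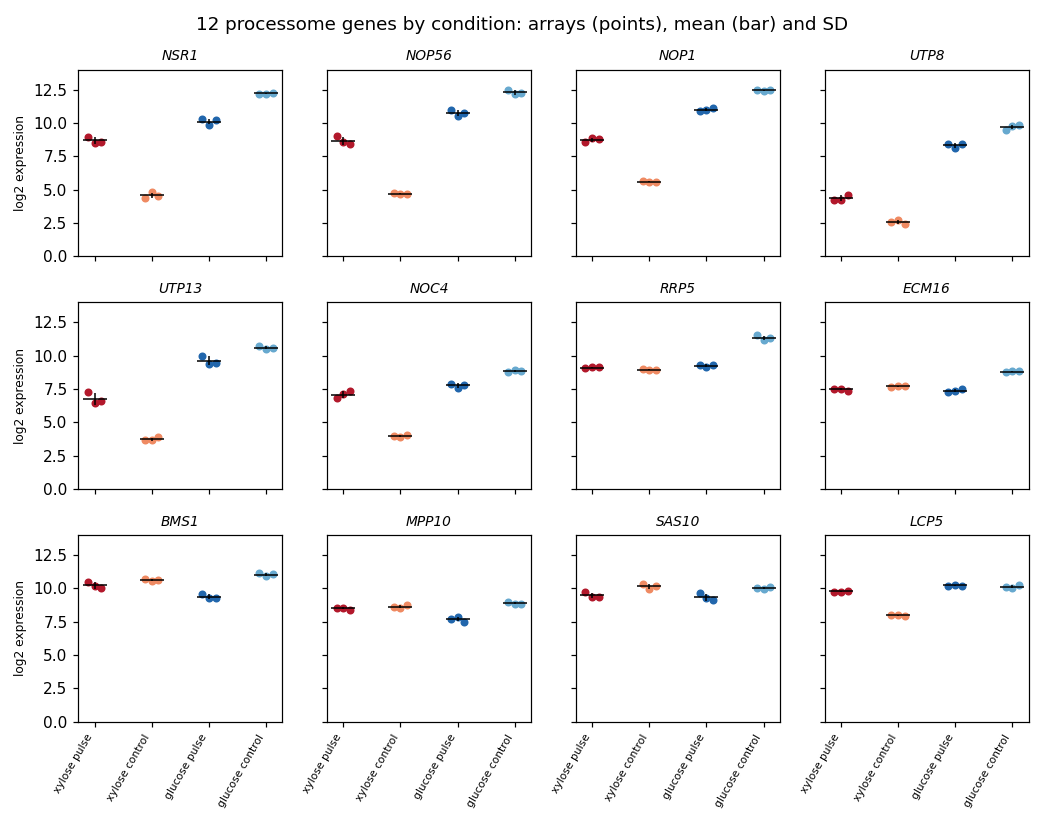
Log2 expression (y axis) of 12 processome genes in the 4 conditions (x axis), with 1 point per array, the mean as a horizontal bar and the SD of 3 arrays as a vertical bar. NSR1, NOP56, NOP1, UTP8, UTP13 and NOC4 are lowest in the xylose control, RRP5 and ECM16 are high only in the glucose control, and BMS1 and MPP10 are lowest in the glucose pulse.

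After the pulse the phases lay closer together. Between the xylose pulse and the glucose pulse 22 of 49 members were called lower, 0 higher and 27 did not pass, where 22.9% of all probe sets were called lower and 20.8% higher. The median log2 fold change was -0.69, against -0.07 over all probe sets. At an adjusted p under 0.01 and any size, 29 members were lower (40.4% of all probe sets) and 8 higher (35.7%), and at an unadjusted p under 0.05 limma gave 29 lower and 9 higher. Among all 5489 probe sets that unadjusted level gave 2416 lower and 2124 higher. The arrays did not overlap for 29 members that were lower (43.8% of all probe sets) and 9 that were higher (39.0%). Members still lower after the xylose pulse included UTP8 at -3.96 (4.23, 4.24 and 4.63 in the xylose pulse, against 8.46, 8.13 and 8.40 in the glucose pulse), UTP13 at -2.88 (7.24, 6.42 and 6.57 in the xylose pulse, against 10.01, 9.40 and 9.46 in the glucose pulse) and UTP4 at -2.84 (7.42, 6.75 and 6.62 in the xylose pulse, against 10.24, 9.52 and 9.56 in the glucose pulse). The 4 listed U3 snoRNP genes were all lower, by -1.34 (RRP9) to -2.28 (NOP1), as were 5 of 7 UTP-A and 5 of 6 UTP-B genes.

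In the helicases the levels of the 2 pulsed conditions met. None of the 5 was called, 0 had an unadjusted p under 0.05 from limma, and their log2 fold changes lay between -0.14 and 0.15. ECM16 was at 7.52, 7.52 and 7.38 in the xylose pulse, against 7.27, 7.34 and 7.52 in the glucose pulse, and RRP5 was at 9.05, 9.17 and 9.12 in the xylose pulse, against 9.32, 9.12 and 9.31 in the glucose pulse (-0.14, adjusted p = 0.196 from limma), both with overlapping arrays. The largest positive values were 0.85 for BMS1 (10.51, 10.14 and 10.03 in the xylose pulse, against 9.61, 9.27 and 9.25 in the glucose pulse), 0.83 for MPP10 (8.54, 8.55 and 8.41 in the xylose pulse, against 7.68, 7.82 and 7.51 in the glucose pulse) and 0.80 for FAF1. These had adjusted p-values of 5.44e-05, 2.23e-06 and 5.3e-05 from limma and stayed short of the fold threshold. After a second quantile normalization MPP10 passed, at 1.02. Across the 49 genes the log2 fold change between the pulses followed that between the controls, which uses other arrays (Pearson r = 0.86, Spearman rho = 0.89), as over all probe sets (0.76 and 0.72).

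**Figure D4:**
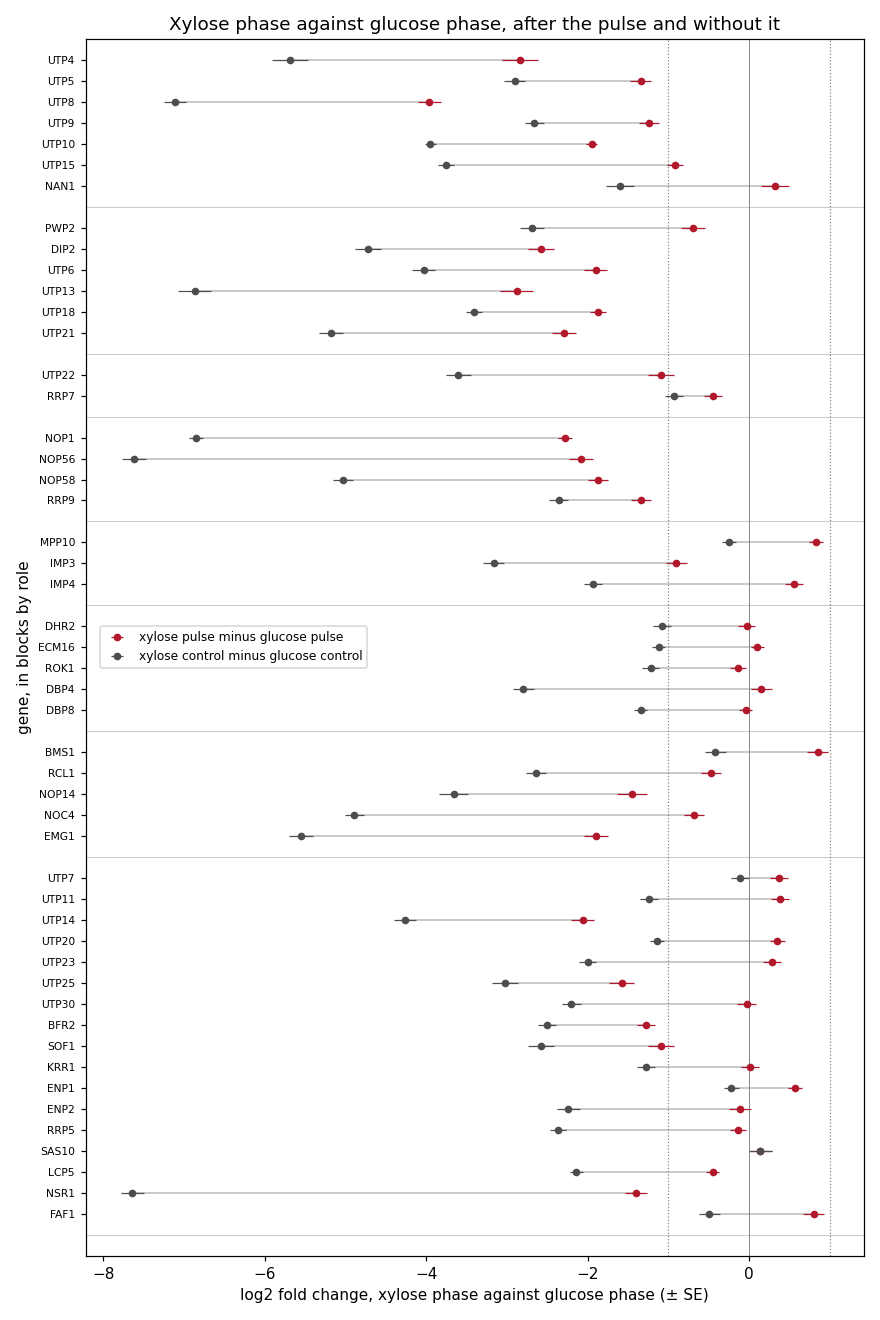
Log2 fold change of the xylose phase against the glucose phase (x axis, bars are standard errors from limma) for the 49 genes (y axis, blocks by role), after the pulse (red) and without it (grey). The grey points reach -7.64 and the red ones -3.96, and for all genes but SAS10 the red point lies to the right.

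RRP7, UTP7, ENP1 and SAS10 were called in no comparison, although RRP7 passed between the controls after a second quantile normalization (-1.01, adjusted p = 9.82e-07 from limma). RRP7, a partner of Utp22, read 10.36, 10.00 and 9.91 in the xylose pulse, 9.99, 9.89 and 9.96 in the xylose control, 10.68, 10.53 and 10.40 in the glucose pulse and 10.96, 10.83 and 10.85 in the glucose control. UTP7, a protein with WD repeats, read 9.60, 9.40 and 9.32 in the xylose pulse, 9.68, 9.60 and 9.49 in the xylose control, 9.31, 8.95 and 8.97 in the glucose pulse and 9.78, 9.56 and 9.76 in the glucose control. ENP1, which stays with the particle into the later pre-40S steps, read 8.95, 8.96 and 9.17 in the xylose pulse, 9.02, 9.13 and 9.07 in the xylose control, 8.49, 8.31 and 8.57 in the glucose pulse and 9.29, 9.27 and 9.32 in the glucose control. In all 3 the glucose pulse arrays were below the glucose control arrays, as for 34.1% of all probe sets, with log2 fold changes of -0.34, -0.63 and -0.84.

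SAS10 had a pattern of its own among the members. It was at 9.69, 9.35 and 9.37 in the xylose pulse, 10.34, 9.94 and 10.19 in the xylose control, 9.63, 9.24 and 9.12 in the glucose pulse and 10.06, 9.92 and 10.07 in the glucose control. Its log2 fold change after the pulse was -0.69 in the xylose phase (adjusted p = 0.000791 from limma) and -0.69 in the glucose phase (adjusted p = 0.000809 from limma), short of the fold threshold in both. In both phases the pulsed arrays lay below the control arrays, as for 40.6% of all probe sets in the xylose phase and 34.1% in the glucose phase. The difference between the phases was -0.00 (standard error 0.20, adjusted p = 0.999), where that of the other 48 members was above 0.

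Gene length bore little relation to the changes within the group. Across the 49 genes, Pearson's r between the log2 length in the R64 annotation and the log2 fold change was -0.24 after the glucose pulse, -0.21 after the xylose pulse and -0.01 between the controls. None of the 49 genes is the direct neighbour of another on its chromosome among protein-coding genes of that annotation.

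Other genes of ribosome synthesis were set beside the members by counts, shares and medians, with no test between lists. Of 31 further small-subunit assembly factors, 3 were called lower after the glucose pulse (9.68%, near the 9.55% of all probe sets), with a median log2 fold change of -0.59, and 9 rose after the xylose pulse (29%, against 11.8% of all probe sets), with a median of 0.53. Without the fold threshold, 18 of the 31 were lower after the glucose pulse at an adjusted p under 0.01 (27.1% of all probe sets) and 0 higher (30.6%). The glucose pulse arrays lay wholly below the control arrays for 20 of the 31 (34.1% of all probe sets) and above them for 3 (37.3%). Among the 31, RRP12, an export factor of both subunits, had -1.17 after the glucose pulse and PXR1, a nucleolar cofactor of the helicase Prp43, 3.00 after the xylose pulse. Of 42 large-subunit assembly factors, 22 fell after the glucose pulse (52.4%, median -1.07) and 15 rose after the xylose pulse (35.7%, median 0.81), with the helicase gene HAS1, which serves both subunits, at 3.53. In the list of RNA polymerase I, which makes the precursor rRNA, and its factors, 4 of 16 genes were lower after the glucose pulse (25%, median -0.20). After the xylose pulse 8 of them were higher (50%, median 1.01). RPA135 had -2.35 after the glucose pulse and RPA12 4.75 after the xylose pulse. Without the fold threshold the list was split after the glucose pulse. At an adjusted p under 0.01 from limma, 6 were lower (27.1% of all probe sets) and 4 higher (30.6%).

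Between the controls, where 27.2% of all probe sets were lower and 27.8% higher in the xylose phase, 18 of the 31 further small-subunit factors (58.1%), 37 of the 42 large-subunit factors (88.1%) and 12 of the 16 polymerase I genes (75%) were lower. In the same comparison 3 further small-subunit factors (9.68%) and 1 polymerase I gene (6.25%) were higher. Of 14 genes of the RNA exosome and its cofactors, which trim and destroy precursor RNA, limma called 0 after the glucose pulse (2 higher and 5 lower at an unadjusted p under 0.05), 1 higher after the xylose pulse (MTR3, 1.31), which is 7.14% against 11.8% of all probe sets, and 5 lower between the controls (35.7%). None of the 4 casein kinase 2 subunit genes, whose products associate with UTP-C, was called by limma in these 3 comparisons, where 2 were lower at an unadjusted p under 0.05 in each and 1 was higher between the controls. Among all 5489 probe sets that unadjusted level gave 2039 higher and 1845 lower after the glucose pulse. It gave 1807 higher and 2176 lower after the xylose pulse, and 2485 higher and 2292 lower between the controls.

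A further list held 11 genes of known regulators of ribosome biogenesis or ribosomal protein genes. Of these, 1 was higher and 1 lower after the glucose pulse (9.09% each, against 11.6% and 9.55% of all probe sets). After the xylose pulse 1 was higher (9.09%, against 11.8%). These shares were near those of all probe sets. Between the controls 4 were higher in the xylose phase (36.4%, against 27.8%), and between the pulses 7 were higher in the xylose phase (63.6%, against 20.8%). At any size and an adjusted p under 0.01, limma gave 6 regulators higher between the controls (42.3% of all probe sets). It gave 1 lower (39.2%), and the lowest log2 fold change of the 11 was -0.47. CRF1, a corepressor of ribosomal protein genes in some strains, was called higher after the glucose pulse (1.55), after the xylose pulse (1.38), in the xylose control against the glucose control (4.87) and in the xylose pulse against the glucose pulse (4.70). The repressor genes DOT6, TOD6 and STB3 were higher in the xylose control than in the glucose control, at 2.26, 1.24 and 1.04, of which TOD6 and STB3 were chosen after their values were seen. After the glucose and xylose pulses DOT6 had -0.37 and -0.45, TOD6 0.58 and 0.36, and STB3 0.22 and 0.20, none of which passed. Between the pulses all 11 regulators, activators included, had values above 0, the lowest being 0.20. RAP1, a DNA-binding activator of ribosomal protein genes, fell after the glucose pulse (-1.12). SFP1, an activator of ribosome biogenesis genes, had 0.80 after the xylose pulse and -0.27 after the glucose pulse, neither of which passed, and a called difference of 1.07 between the phases (adjusted p = 2.49e-05 from limma).

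**Figure D5:**
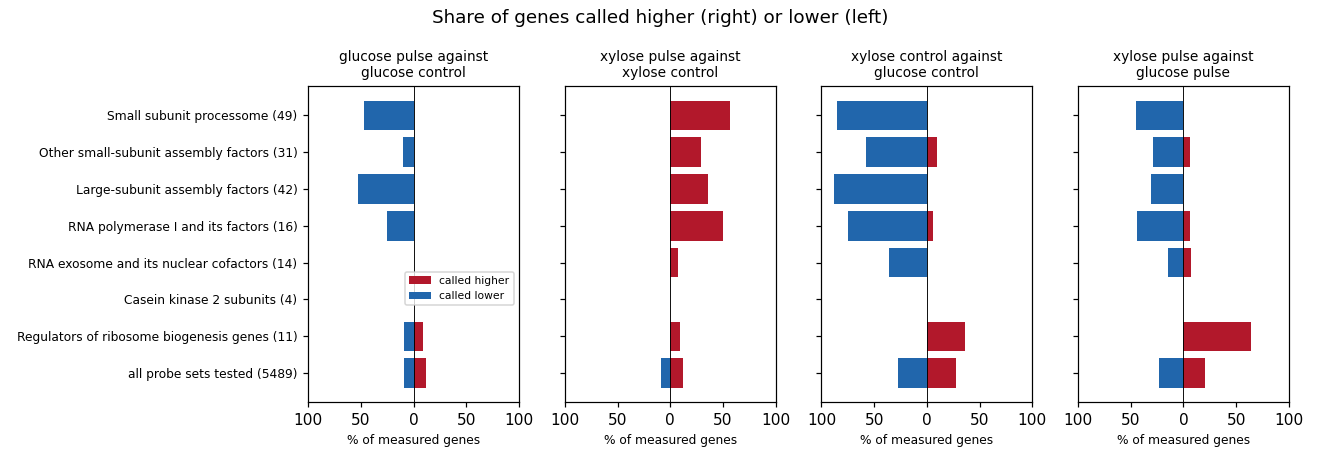
Share of measured genes called higher (red, to the right) or lower (blue, to the left) for the processome genes, 6 other gene lists and all probe sets tested (rows, with the number measured) in 4 comparisons (panels); the x axis is in percent. The processome genes had 46.9% lower after the glucose pulse, 57.1% higher after the xylose pulse and 85.7% lower between the controls.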

How the data were processed

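The deposited table holds log2 expression of 5705 probe sets on 12 arrays, which the authors made with RMA (which corrects background, sets arrays to one distribution and summarises the probes of a set). It was analysed as deposited. Probe sets were paired with genes through the platform's annotation and current symbols by gene identifier (12 updated). Of the probe sets, 5489 carry 1 gene, 216 none and 0 several. All 12 arrays entered one linear model of the 4 conditions in limma 3.58.1 in R 4.3.3 (8 residual and 4.53 prior degrees of freedom), and p-values were adjusted by Benjamini-Hochberg over the 5489 probe sets. The thresholds (adjusted p under 0.01, log2 fold change beyond 1) are those of the study's methods. Precision is limited by 3 arrays per condition, which correlated at 0.992 to 0.998 within conditions.

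The members, other gene lists and roles were chosen with earlier results of these data known. Array values are given for the members with the 3 largest called changes in each direction and comparison, those called in no comparison and 8 that define a role group, and up to 2 genes per other list and comparison with the smallest adjusted p are named. Other members are named by role, and the array values of LCP5 and the regulators TOD6 and STB3 were chosen after their values were seen.

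Replicate numbers were checked by correlating deviations from the condition means. The correlations of same-numbered arrays were 0.569, 0.299 and 0.305 (xylose pulse and control) and 0.474, 0.381 and 0.145 (glucose pulse and control), all above the 0.1 set for pairing. Differently numbered arrays reached 0.328 (xylose pulse 3 with control 2) and 0.285 (glucose pulse 3 with control 2). Between phases the same-numbered controls had 0.419, 0.237 and 0.0687, and the same-numbered pulses 0.599, 0.201 and 0.395. Differently numbered pulses reached 0.412 (xylose pulse 3 with glucose pulse 2). The pulses also passed 0.1 although the 2 phases were pulsed in separate experiments, so this threshold cannot establish pairs. Neither do the labels give a pairing. The p-values in the text come from the model without a replicate block. Alternatives were the replicate number as a block, each comparison's own arrays, all probe sets, the lowest 25% left out, a second quantile normalization, median centring, a trended and robust prior, other thresholds, limma's treat, averaging several probe sets per gene, and fits with 1 array left out. Promoter and protein sequences were not used here. Python 3.11.15 and matplotlib 3.10.9 drew the figures.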

Additional observations from a re-analysis of the deposited data

Results flagged for a closer look

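The response to the pulse differed between the phases for 45 of the 49 processome genes. The difference was tested in limma as a contrast (log2 fold change in the xylose phase minus log2 fold change in the glucose phase), and the values below are these differences. For genes with a dim xylose control, NSR1, NOP56 and NOP1 among them, they are not exact in size. In the UTP-A complex it was 2.85 for UTP4, 1.56 for UTP5, 3.15 for UTP8, 1.42 for UTP9, 1.99 for UTP10, 2.83 for UTP15 and 1.92 for NAN1. In the UTP-B complex it was 2.00 for PWP2, 2.14 for DIP2, 2.13 for UTP6, 3.99 for UTP13, 1.54 for UTP18 and 2.89 for UTP21, and in UTP-C it was 2.51 for UTP22. The U3 snoRNP proteins had 4.57 for NOP1, 5.54 for NOP56, 3.16 for NOP58 and 1.03 for RRP9. MPP10 had 1.08, IMP3 2.26 and IMP4 2.49. Among the helicases DHR2 had 1.06, ECM16 1.22, ROK1 1.08, DBP4 2.94 and DBP8 1.29. BMS1 had 1.27, RCL1 2.17, NOP14 2.21, NOC4 4.21 and EMG1 3.65. Of the single factors, UTP11 had 1.62, UTP14 2.20, UTP20 1.49, UTP23 2.28, UTP25 1.44, UTP30 2.17, BFR2 1.22, SOF1 1.49, KRR1 1.30, ENP2 2.12, RRP5 2.23, LCP5 1.69, NSR1 6.24 and FAF1 1.30.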

How the results depend on the processing

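Counts moved with the fold threshold and with the members kept. Without the lowest 25% of probe sets 35 members remained, so those counts are out of 35 and not 49. After the glucose pulse, 23 members were lower, against 15 of 35 without the lowest 25%, 42 with no minimum fold change and 7 with limma's treat. After the xylose pulse, 28 were higher, against 17 of 35 without the lowest 25% and 15 with treat, and 0 were lower, against 1 (SAS10) with no minimum fold change. Between the controls, 42 were lower, against 28 of 35 without the lowest 25% and 36 with treat. Between the pulses, 22 were lower, against 15 of 35 without the lowest 25% and 14 with treat, and 0 were higher, against 1 (MPP10) after a second quantile normalization and 8 with no minimum fold change. The 45 differences became 31 of 35 without the lowest 25% and 31 with treat. Leaving out each array gave 21 to 26 lower after the glucose pulse, 25 to 28 higher after the xylose pulse, 42 lower between the controls, 20 to 22 lower between the pulses and 43 to 45 differences. The replicate number as a block gave the same counts of 23, 28, 42, 22 and 45 in these comparisons and changed no member's call.

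Scaling and single arrays moved calls of named members close to the threshold. After a second quantile normalization UTP13 passed after the glucose pulse (-1.04), and between the controls RRP7 passed (-1.01) and ECM16 did not (-0.93). UTP13 also passed after the glucose pulse without glucose control replicate 2 (-1.01) or glucose pulse replicate 1 (-1.16) and with replicates 2 and 3 only (-1.11). NOC4 did not pass after the glucose pulse without glucose pulse replicate 2 (-1.0), nor UTP22 between the pulses without glucose pulse replicate 1 (-0.95) or xylose pulse replicate 3 (-0.98), nor the MPP10 difference without glucose pulse replicate 3 (1.0). The SAS10 difference of -0.00 changed sign, to 0.08 after a second quantile normalization, 0.01 after median centring, 0.10 with replicates 2 and 3 only (a setting chosen after seeing the data), and, with 1 array left out, without glucose control replicate 2 (0.05), glucose pulse replicate 1 (0.15), xylose control replicate 1 (0.09) or 3 (0.02), or xylose pulse replicate 2 (0.06) or 3 (0.05), the leave-one-out values running from -0.11 to 0.15. The cause was not tested. Fits on a comparison's own arrays were not run for the difference, which needs all 12. Signal over background was not used here, so sizes against dim levels are limits of these data.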
